A study of Saccharomyces cerevisiae S288C with 4 samples.

Results

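The 81 genes for the proteins of the large (60S) subunit of the cytosolic ribosome were compared between WT and *tho2Δ* yeast, each gene by itself and the A and B copies of a protein with each other. They were chosen by symbol alone, RPL with 1 or 2 digits and an optional A or B, plus *RPP0*, *RPP1A*, *RPP1B*, *RPP2A* and *RPP2B*, and make up 81 of the 6396 genes of the deposited table. The 81 genes encode 46 proteins, of which 35 have an A and a B copy and 11 a single gene. WT was BY4741 (*MATa ura3Δ0 leu2Δ0 his3Δ1 met15Δ0*), a haploid laboratory strain, and *tho2Δ* was FY254, which carries the same alleles and *tho2Δ::KanMX4*. Cultures in YPD, a rich medium, were collected in mid-log phase at 30 °C, and each strain has 2 RNA-seq libraries, replicates 3 and 4 of the labels. No source used here states whether the libraries of a strain are from separate cultures, so p-values reflect only how far these libraries spread, which may be technical. The mutant is 1 deletion strain, and a second strain or a complemented one was not analysed here.

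The large subunit joins amino acids in its peptidyl transferase center, passes the growing chain through an exit tunnel, and binds translation factors at a flexible stalk made of P0 and the acidic proteins P1 and P2. In budding yeast most of these proteins are encoded by a pair of genes left from a whole-genome duplication, many of the genes hold an intron, and most are activated together by Rap1 with Fhl1, Ifh1 and Sfp1. Tho2 is a subunit of the THO complex, which binds nascent transcripts and links transcription to mRNA export.

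Total counts lay between 31417222 and 36989697 per library. Where values are given per library, replicate 3 comes before replicate 4 and WT before *tho2Δ*. *THO2*, the deleted gene, had 4011, 2457, 1 and 1 counts. *URA3* and *MET17* (the gene of the *met15Δ0* allele) were at 0 counts in all 4 libraries, where a count of 0 allows up to 3. *LEU2* goes against the genotype *leu2Δ0* in 3 libraries, with 0, 2512, 511 and 4276 counts. WT replicate 4 stands apart from WT replicate 3 in a second way, with a TMM factor (the factor by which edgeR scales a library) of 0.723 against 1.003, beside 1.18 and 1.17 in *tho2Δ*. The count of lower large-subunit genes, the count of pairs that passed and the values of genes that moved by over 1.5-fold are therefore also given without WT replicate 4. Counts for smaller groups, for other gene lists and of libraries that do not overlap are given with all 4 libraries only. The *LEU2* counts of both *tho2Δ* libraries leave no mutant library without them, and their part in the results was not tested.

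Transcripts of the large subunit were lower in *tho2Δ* almost throughout. Of the 81 genes, 77 were lower in *tho2Δ*, 0 genes were higher and 4 remained short of the threshold (edgeR's quasi-likelihood test over 5890 genes, Benjamini-Hochberg adjusted p under 0.05). Among all genes tested, 19.1% were lower and 18.8% higher. The median log2 fold change, *tho2Δ* over WT, was -1.39 for the 81 genes, or 2.62-fold lower, against 0.01 for all genes tested. Values per gene are CPM (counts per library size after TMM scaling), and in 80 of the 81 genes both *tho2Δ* libraries lay below both WT libraries, against 36.3% of all genes. *RPL41B* was the exception. Lower RNA per cell and fewer cells that make the RNA cannot be told apart in such bulk samples.

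**Figure D1:**
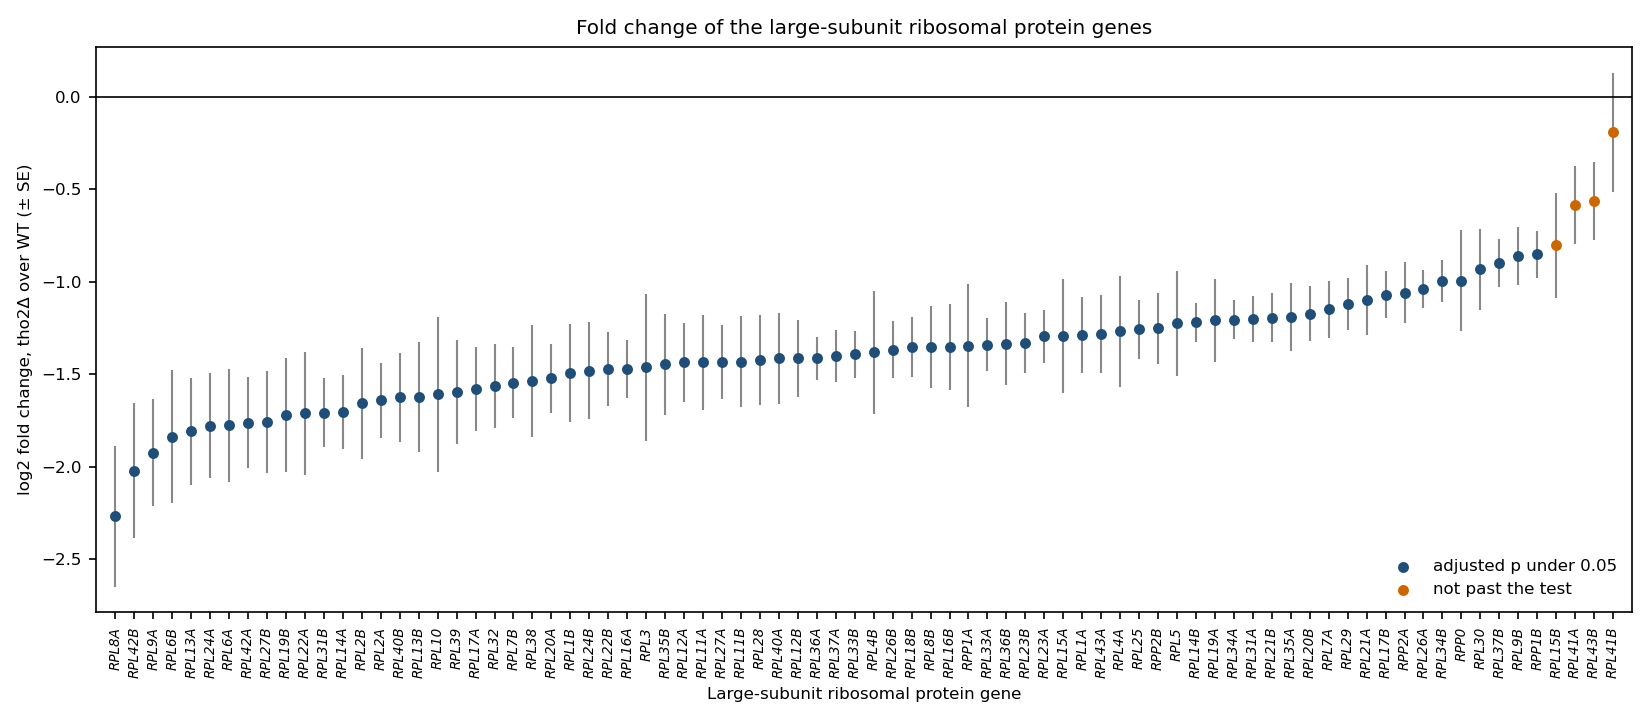
Log2 fold change (y axis, *tho2Δ* over WT, with its SE) of 80 of the 81 large-subunit genes (x axis), ordered by fold change, with the 4 genes that did not pass edgeR's test in orange. The values run from -2.27 for *RPL8A* to -0.19 for *RPL41B*, whose sign turns with library totals, on the TPM scales and without WT replicate 3.

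Without WT replicate 3, 80 genes were lower and 1 higher (*RPL41B*), with a median of -1.64, where 31.1% of all genes were lower and 30.1% higher. Without WT replicate 4, 81 were lower, with a median of -1.16, where 27.5% of all genes were lower. The count was 11 without *tho2Δ* replicate 3 (3.98% of all genes) and 8 without *tho2Δ* replicate 4 (3.37%), although the medians, -1.41 and -1.38, hardly moved, since the spread then came from the WT libraries alone.

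The 6 genes with the lowest fold changes were *RPL8A*, *RPL42B*, *RPL9A*, *RPL6B*, *RPL13A* and *RPL24A*. *RPL8A* (chromosome VIII, 35255 to 36025, R64, no intron), 1 of 2 genes for the protein L8, had 487 and 1075 CPM in the WT libraries against 164 and 161 CPM in the *tho2Δ* libraries. Both mutant libraries lay far below both WT libraries, and WT replicate 4 was the highest library (log2 fold change -2.27, SE 0.38, edgeR adjusted p = 0.0089). *RPL42B* (chromosome VIII, 381990 to 382751, 1 intron), a gene for L42, a protein near the exit site for tRNA, had 675 and 1427 CPM in the WT libraries against 256 and 261 CPM in the *tho2Δ* libraries. Its groups did not overlap either, and again WT replicate 4 was the highest library (log2 fold change -2.02, SE 0.37, edgeR adjusted p = 0.011). The coding sequences of *RPL8A* and *RPL42B* are at least 95% identical to those of *RPL8B* and *RPL42A*, with which they can share reads.

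*RPL9A* (chromosome VII, 227754 to 228329, no intron), a gene for L9, which lies beside the factor-binding site, had 969.9 and 1661 CPM in the WT libraries against 357 and 336 CPM in the *tho2Δ* libraries. The mutant libraries were close to each other and below both WT libraries (log2 fold change -1.92, SE 0.29, edgeR adjusted p = 0.00636). *RPL6B* (chromosome XII, 1028854 to 1029768, 1 intron) had 449.6, 957, 195 and 199 CPM (log2 fold change -1.84, SE 0.36, edgeR adjusted p = 0.0142). Its partner *RPL6A* fell by nearly the same step, with 299, 559.5, 122 and 128 CPM (log2 fold change -1.78). *RPL13A* (chromosome IV, 308424 to 309388, 1 intron) had 492, 878, 193 and 198 CPM (log2 fold change -1.81, SE 0.29, edgeR adjusted p = 0.00764). *RPL24A* (chromosome VII, 437467 to 437934, no intron), whose product forms a bridge to the small subunit and joins late in the cytoplasm, had 762, 1312, 304 and 301 CPM (log2 fold change -1.78, SE 0.28, edgeR adjusted p = 0.00753). In all 6 genes the groups did not overlap, and WT replicate 4 was above WT replicate 3. Without WT replicate 4 the log2 fold changes were -1.59 for *RPL8A*, -1.39 for *RPL42B*, -1.49 for *RPL9A*, -1.20 for *RPL6B*, and -1.34 for both *RPL13A* and *RPL24A*. Leaving out this library moved 4 of the 81 genes by over 1.5-fold (*RPL8A*, *RPL42B*, *RPL6B* and *RPL10*), and leaving out any of the other libraries moved 0.

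The 4 genes that did not pass are shown next, beginning with *RPL41A* and *RPL41B*. They encode the shortest protein of the ribosome and are nearly the same gene, as their coding sequences from the R64 reference show (5′ to 3′, chrIV:130407-130484 and chrIV:221724-221801, both on the minus strand, with the 1 base that differs in capitals).
RPL41A: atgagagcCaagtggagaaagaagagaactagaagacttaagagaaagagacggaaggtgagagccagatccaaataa
RPL41B: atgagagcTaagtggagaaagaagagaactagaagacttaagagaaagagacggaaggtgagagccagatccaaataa
With 78 coding bases and 1 difference, reads of the copies are hard to assign, so the split between them is uncertain. *RPL41B* had 85.8, 42.3, 56.1 and 56.4 CPM, so that WT replicate 3 was the highest library, WT replicate 4 the lowest, and the groups overlapped (log2 fold change -0.19, SE 0.32, edgeR adjusted p = 0.67). Its log2 fold change turned to 0.39 without WT replicate 3 and was -0.62 without WT replicate 4. *RPL41A* had 54.9, 36.5, 31.04 and 30.1 CPM, with both mutant libraries below both WT libraries (log2 fold change -0.58, SE 0.21, edgeR adjusted p = 0.0777). The log2 fold change of *RPL41A* was -0.85 without WT replicate 4 and -0.28 without WT replicate 3.

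*RPL43B* (chromosome X, 608305 to 608858, 1 intron), a gene for the zinc-binding protein L43, had 322, 213, 187 and 175 CPM (log2 fold change -0.56, SE 0.21, edgeR adjusted p = 0.0853). WT replicate 4 was again the lower WT library, close above the mutant libraries. *RPL15B* (chromosome XIII, 509734 to 510348, no intron), the minor gene for L15, had 28.8, 52.1, 24.1 and 22.2 CPM (log2 fold change -0.80, SE 0.28, edgeR adjusted p = 0.075). Here WT replicate 3 was the lower WT library and lay just above the mutant libraries. Without WT replicates 3 and 4 in turn, the log2 fold changes were -0.26 and -0.84 for *RPL43B* and -1.20 and -0.32 for *RPL15B*. The other genes at the high end were *RPP1B*, described with the stalk, and *RPL9B*, described with its partner.

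**Figure D2:**
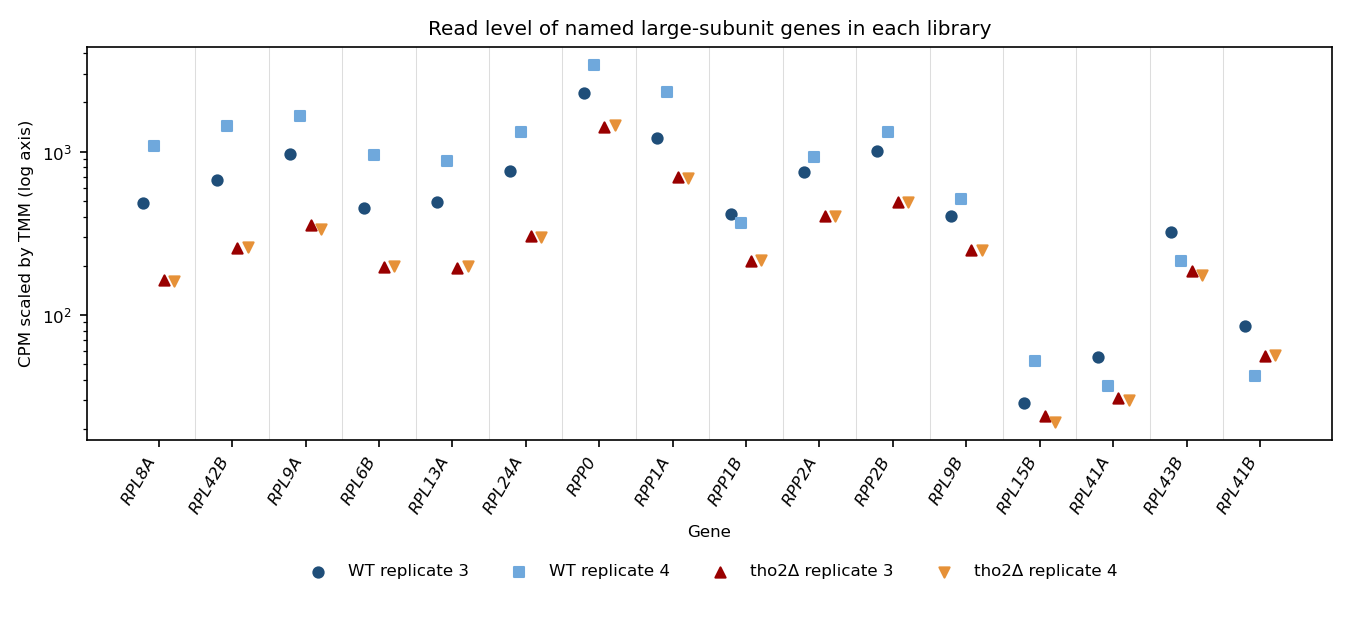
CPM scaled by TMM (y axis, log axis) in each of the 4 libraries (symbols) for the 6 genes with the lowest fold changes, the stalk genes and the genes with the highest fold changes (x axis). In *RPL8A* the mutant libraries lie at 164 and 161 CPM below both WT libraries, and in *RPL41B* at 56.1 and 56.4 CPM between them.

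The WT libraries differed from each other far more than the mutant libraries did, in these genes and over all genes tested. Over all genes tested, the median chi-square between the libraries of a strain (counts scaled by library totals) was 41.6 in WT and 2.47 in *tho2Δ*. Counting noise alone would give 0.455. In CPM after TMM scaling, WT replicate 4 was above WT replicate 3 in 68 of the 81 genes. The median log2 ratio was 0.51, with a range from -1.02 to 1.14. The same ratio between *tho2Δ* replicates 4 and 3 had a median of -0.02 and a range from -0.26 to 0.17. Over all genes tested the medians were -0.01 in both strains. These ratios depend on the scaling, in which WT replicates 3 and 4 have TMM factors of 1.003 and 0.723. As a share of raw counts, the 81 genes took 6.85% in WT replicate 3 and 7.24% in WT replicate 4. Among the 13 genes that were lower in WT replicate 4 were *RPL41B* (log2 ratio -1.02), *RPL43B* (-0.60), *RPL41A* (-0.59) and *RPL30* (-0.58). Across the 81 genes the WT ratio rose with coding length (Pearson r = 0.45, Spearman rho = 0.38, given as a description, since all genes share the same libraries). The part of this difference in the fold changes was not tested beyond leaving each library out. Against WT replicate 3 alone, the *tho2Δ* mean was lower in 81 of the 81 genes, with a median log2 ratio of -1.15, and against WT replicate 4 alone in 80, with a median of -1.62.

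**Figure D3:**
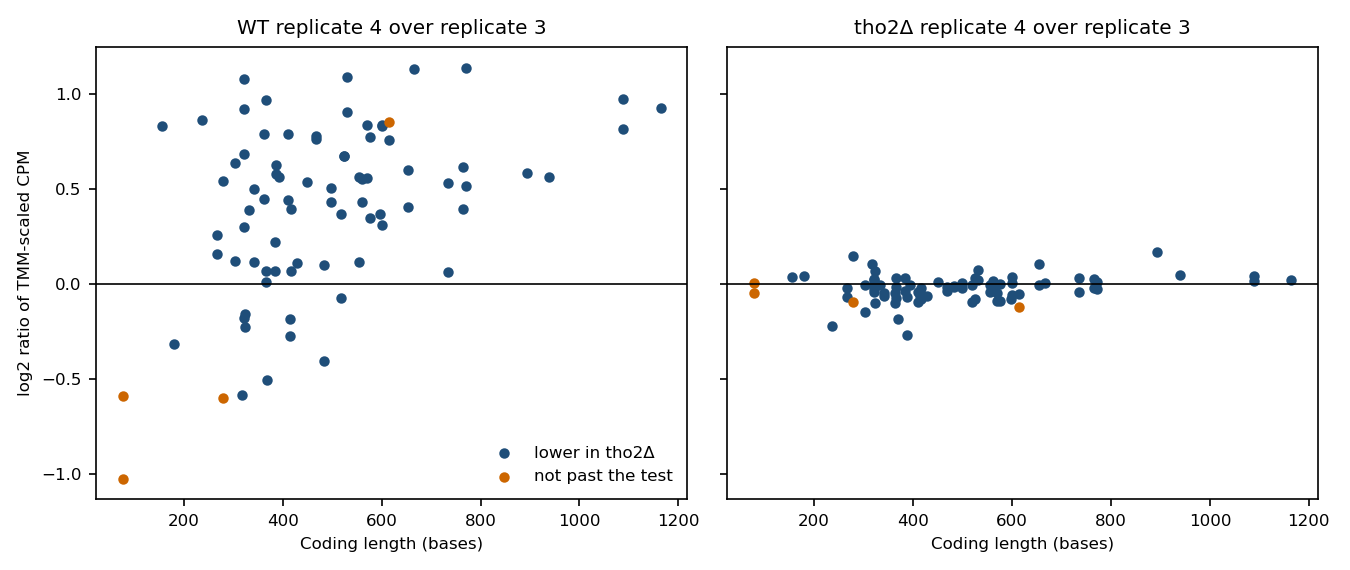
Log2 ratio of CPM between the libraries of a strain (y axis; WT left, *tho2Δ* right) against coding length in bases (x axis), 1 point per large-subunit gene. WT ratios spread from -1.02 to 1.14 and *tho2Δ* ratios from -0.26 to 0.17, and 3 of the 4 genes that did not pass the test (orange) lie below 0 in WT.

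The stalk genes all passed the test with all 4 libraries, although none of them passed without *tho2Δ* replicate 3 or without *tho2Δ* replicate 4. *RPP0*, the gene for P0, the base on which the acidic proteins assemble, had 2294, 3399, 1406 and 1454 CPM. Its groups did not overlap, and its fold change was among the smaller ones (log2 fold change -0.99, SE 0.27, edgeR adjusted p = 0.0385). *RPP0* and *RPP1B* also missed the threshold with library totals (log2 fold changes -0.50 and -0.42) and on both TPM scales (-0.56 and -0.45). *RPP1A* had 1219, 2309.9, 699 and 689 CPM and *RPP1B*, the other gene for P1, 414, 367, 215 and 218 CPM. Both P1 genes fell, *RPP1A* further (log2 fold change -1.35, SE 0.33, edgeR adjusted p = 0.028) than *RPP1B* (log2 fold change -0.85, SE 0.12, edgeR adjusted p = 0.00594), and this difference did not pass the test of copy ratios (edgeR adjusted p = 0.479). The P2 genes *RPP2A* and *RPP2B* had 755, 930.1, 406 and 403 CPM and 1013, 1326, 492 and 491 CPM, with log2 fold changes of -1.06 and -1.25. *RPL12A* and *RPL12B*, for the stalk base protein L12, had log2 fold changes of -1.44 and -1.41. Over the 7 genes of stalk and stalk base the median was -1.25, all 7 passed, and in none did the groups overlap. Per coding length, summed TPM of the P1 and P2 genes was 4.29 and 4.205 times that of *RPP0* in the WT libraries. In *tho2Δ* it was 3.73 and 3.59 times, and the strains did not overlap in this ratio. It is given as a description, since the ratio was not tested.

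The other functional groups were lower to a like extent. In the 5S RNP, in which L5 and L11 hold the 5S rRNA, *RPL5* had 2430.4, 3647, 1224.2 and 1376 CPM (log2 fold change -1.22), and *RPL11A* and *RPL11B* had log2 fold changes of -1.44 and -1.43. The L1 stalk genes *RPL1A* and *RPL1B*, which help release tRNA, had values of -1.29 and -1.49. The 12 genes for proteins that line or surround the exit tunnel were all lower, with a median of -1.32 and a range from -1.71 (*RPL31B*) to -1.04 (*RPL26A*). The genes for proteins that reach toward the peptidyl transferase center were also all lower, with log2 fold changes of -1.64 and -1.66 for *RPL2A* and *RPL2B*, -1.46 for *RPL3*, -1.61 for *RPL10* and -1.42 for *RPL28*. The genes *RPL40A* and *RPL40B*, whose product is made as a fusion with ubiquitin, had values of -1.41 and -1.63.

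*RPP1A*, *RPL10*, *RPL3*, *RPL2B* and *RPL16B* had the highest TPM (a level scaled to gene length and library) averaged over the strains. *RPL10*, whose protein completes the subunit, had 2443, 5366, 1277 and 1285 CPM and fell in *tho2Δ* (log2 fold change -1.61, SE 0.42, edgeR adjusted p = 0.0328). *RPL3*, the longest of the 81 coding sequences, had 4071, 7734, 2124 and 2161 CPM (log2 fold change -1.46, SE 0.40, edgeR adjusted p = 0.0368). *RPL2B* had 3143, 4816, 1248 and 1275 CPM and *RPL16B* 2277, 2945, 1050.2 and 996 CPM, and both were lower (log2 fold change -1.66, SE 0.30, edgeR adjusted p = 0.0111 and log2 fold change -1.35, SE 0.23, edgeR adjusted p = 0.00945). In *RPL10* and *RPL3* WT replicate 4 stood far above WT replicate 3, while the mutant libraries were nearly equal. Without WT replicate 4 their log2 fold changes were -0.94 and -0.93. Levels in the strains went together, with Pearson r = 0.96 and Spearman rho = 0.93 between log2 TPM in *tho2Δ* and in WT over the 81 genes, as a description.

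The 81 genes took 11.8% and 12.5% of all TPM in the WT libraries, against 6.21% and 6.25% in the *tho2Δ* libraries. This is 12.1% ± 0.478 in WT and 6.23% ± 0.0274 in *tho2Δ* (SD, n = 2), a ratio of 0.513. With 2 libraries a strain, the smallest two-sided p of an exact permutation test is 0.3333, and this is the p obtained. Within the TPM of protein-coding genes the ratio was 0.614 (17.5% ± 0.332 in WT and 10.7% ± 0.0557 in *tho2Δ*). The genes of the small subunit took 9.46% ± 0.313 of all TPM in WT and 4.63% ± 0.00584 in *tho2Δ*, a ratio of 0.490.

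Summed over both copies, the median TPM per protein was 2351 and 2399.6 in the WT libraries, against 1236 and 1265 in the *tho2Δ* libraries. On the TPM scale the median gene of all genes was higher in *tho2Δ* (log2 fold change 0.39, limma on log2(TPM + 1)), so 100% of WT is not the level of the typical gene. The median protein was at 50.8% of its WT level on this scale. In 44 of the 46 proteins both mutant libraries lay below both WT libraries, against 15.8% of all single genes tested on the TPM scale. The exceptions were *RPL41*, at 99.5% of WT (1556, 654, 1096 and 1104 TPM), and *RPL30*, a single gene whose product limits the splicing of its own transcript, at 66.7% (2127.5, 1068, 1018 and 1114 TPM). At the other end *RPL42* was at 36.2%, *RPL6* at 39.1% and *RPL22* at 42.1%. *RPP0* was at 67.6% and *RPL43* at 66.9%. On the count scale *RPL30* passed the test with 784, 524, 329.8 and 356 CPM (log2 fold change -0.93, SE 0.22, edgeR adjusted p = 0.025).

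**Figure D4:**
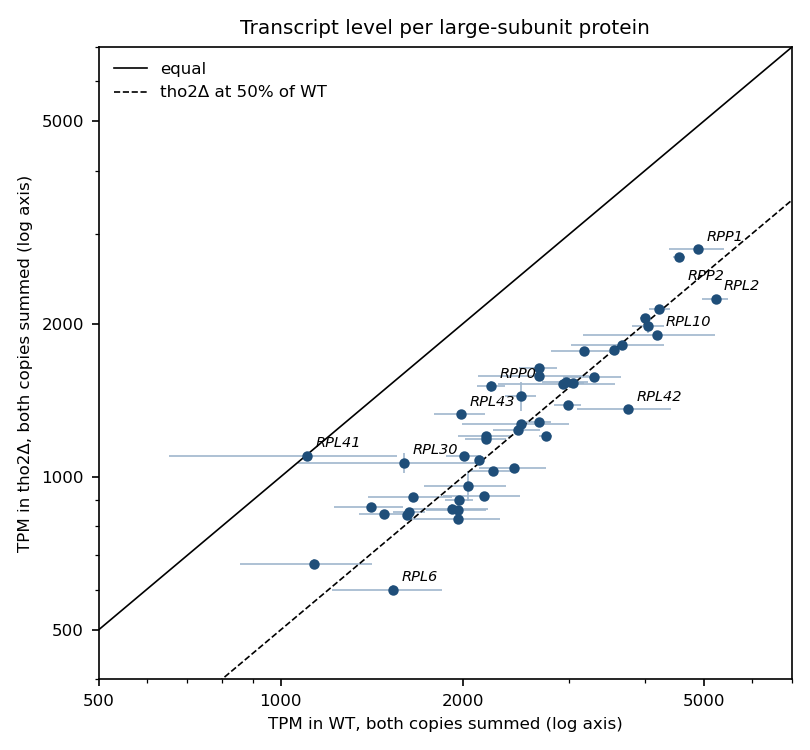
TPM per protein with both copies summed in *tho2Δ* (y axis, log axis) against WT (x axis, log axis), points at the mean of 2 libraries and bars from the lower to the higher library. Most of the 46 proteins lie near the dashed line at 50% of WT, *RPL41* lies near the line of equal level with WT libraries from 654 to 1556 TPM, and *RPL6* is the lowest in *tho2Δ*.

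Genes with and without an intron had like fold changes. Of the 53 genes with an intron 52 were lower, with a median of -1.40, and of the 28 without an intron 25 were lower, with a median of -1.37. The table gives 1 count per gene, so spliced and unspliced RNA cannot be told apart. *RPL7A* and *RPL7B* hold 2 introns each, with the snoRNA genes *SNR39* and *SNR59* inside, and their log2 fold changes were -1.15 and -1.55. The 11 single genes had a median of -1.42 (11 lower) and the 70 paired genes of -1.39 (66 lower). A copies had a median of -1.41 and B copies of -1.37. Fold changes went weakly with coding length (Pearson r = -0.24, Spearman rho = -0.23) and hardly with GC content (Pearson r = 0.02, Spearman rho = 0.07) over the 81 genes. Of the 22 genes with a near-identical copy 20 were lower, with a median of -1.43, and of the 59 that lack one and overlap no other gene 57 were lower, with a median of -1.37.

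The copies of a pair were compared as the ratio of A to B counts within each library, which no scaling of libraries can alter. None of the 35 pairs passed an adjusted p under 0.05 (0 of 35 with edgeR, 0 of 35 with limma), while 7 pairs with edgeR and 9 with limma had an unadjusted p under 0.05. The background is 0% of the 61 A and B pairs of the table at the adjusted p and 23% at the unadjusted p (26.2% with limma). These 61 pairs include the 35 themselves, so shares of the 61 are not independent of them. Of the other 26, mostly pairs of small-subunit genes, 0 passed at the adjusted p and 7 at the unadjusted p (edgeR). Without WT replicate 3 the count was 27, against 78.7% of the 61 pairs, and without WT replicate 4 it was 20, against 59%. Without *tho2Δ* replicate 3 or without *tho2Δ* replicate 4 it was 0, against 0% of the 61 pairs. Irrespective of sign, the median change of the log2 ratio was 0.21 between the strains, 0.22 between the WT libraries and 0.05 between the *tho2Δ* libraries. In 23 of the 35 pairs the shares of the A copy did not overlap between the strains, against 67.2% of the 61 pairs and 18 of the other 26. The ratio was lower in *tho2Δ* in 20 pairs and higher in 15.

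*RPL9* had the smallest p of the 35 pairs. The beginnings of the coding sequences of its copies show how far they differ (R64 reference, 5′ to 3′, the first 90 bases, chrVII:228240-228329 on the minus strand and chrXIV:499681-499770 on the plus strand, with the 8 bases that differ in capitals).
RPL9A: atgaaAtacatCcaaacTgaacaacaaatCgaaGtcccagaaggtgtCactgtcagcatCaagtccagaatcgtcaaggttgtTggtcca
RPL9B: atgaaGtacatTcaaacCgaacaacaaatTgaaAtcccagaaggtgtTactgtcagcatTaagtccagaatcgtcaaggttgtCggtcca
Over their full length the copies differ at 36 positions, and the proteins at 4. The share of *RPL9A* in the counts of both copies was 70.8% and 76.5% in the WT libraries against 58.8% and 57.3% in the *tho2Δ* libraries. Both mutant libraries were lower than both WT libraries (log2 change of the A to B ratio -1.02, SE 0.18, edgeR adjusted p = 0.0688), and the change was -0.81 without WT replicate 4. *RPL9A* itself fell by 1.92 on the log2 scale, whereas *RPL9B*, with 401, 510.2, 251 and 251 CPM, fell by 0.86 (SE 0.16, edgeR adjusted p = 0.0114). Tested among 713 pairs of genes whose proteins match each other best, of which 33.4% passed, the ratio of *RPL9* passed (edgeR adjusted p = 0.0162).

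*RPL15* and *RPL37* came next, also with a lower share of the A copy in *tho2Δ*. The share of *RPL15A* was 98.6% and 98.5% in the WT libraries against 97.9% and 97.9% in the *tho2Δ* libraries (log2 change of the A to B ratio -0.50, SE 0.09, edgeR adjusted p = 0.0688). *RPL15A*, the main gene for L15, had 1964, 3319.9, 1098 and 1059 CPM and fell by 1.29 on the log2 scale. The share of *RPL37A* was 44.9% and 46.7% in the WT libraries against 37.1% and 37.8% in the *tho2Δ* libraries (log2 change of the A to B ratio -0.50, SE 0.12, edgeR adjusted p = 0.101). *RPL37A* had 398, 477, 167 and 165 CPM and *RPL37B* 487, 544, 283 and 271 CPM, and the groups of neither gene overlapped. Among the 713 pairs both ratios passed, each with an edgeR adjusted p = 0.0282. With *RPL9*, 3 of the 33 large-subunit pairs in that set passed, a smaller share than the 33.4% of all 713.

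*RPL19* had a ratio change of the opposite sign. The share of *RPL19A* was 40.1% and 35.6% in the WT libraries against 45.6% and 46.3% in the *tho2Δ* libraries (log2 change of the A to B ratio 0.48, SE 0.12, edgeR adjusted p = 0.127). *RPL19A* had 776, 1146, 422 and 410.1 CPM and *RPL19B* 1159, 2071, 504 and 475 CPM, and the proteins of the copies are identical. For *RPL8*, whose copies are 95.1% identical in coding sequence, the share of *RPL8A* was 31.4% and 41.3% in the WT libraries against 24.5% and 23.97% in the *tho2Δ* libraries (log2 change of the A to B ratio -0.83, SE 0.23, edgeR adjusted p = 0.149), and the change was -0.52 without WT replicate 4. *RPL8B* had 1066, 1528, 506 and 510.2 CPM and fell by 1.35 on the log2 scale. At the other extreme, the ratios of *RPL2*, *RPL11* and *RPL12* differed by -0.0028, -0.0035 and -0.016 (SE 0.11, 0.10 and 0.08). The 12 pairs with identical proteins had a median change of 0.21, irrespective of sign, and 1 of them had an unadjusted p under 0.05.

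**Figure D5:**
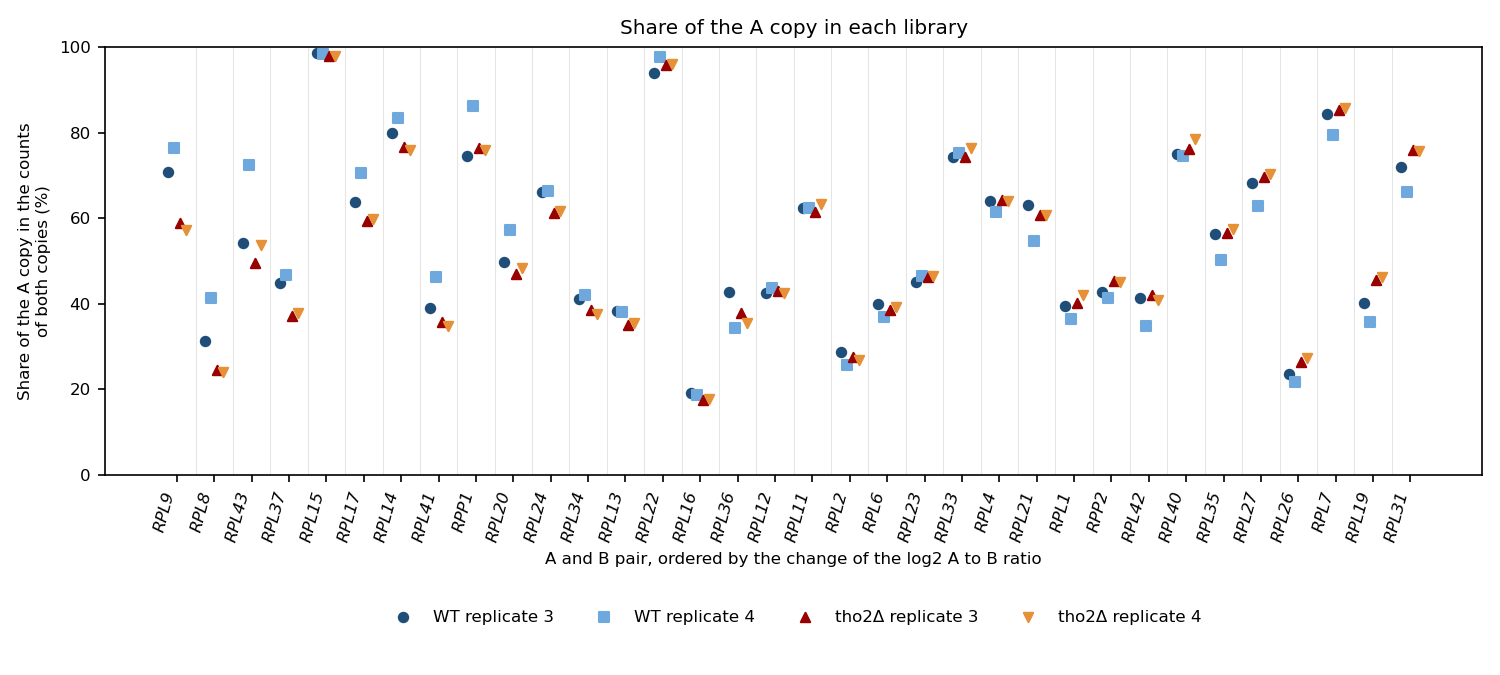
Share of the A copy in the counts of both copies (y axis, percent) in each of the 4 libraries (symbols) for 34 of the 35 A and B pairs (x axis), ordered by the change of the log2 A to B ratio from *RPL9* (-1.02) to *RPL31* (0.49). In *RPL43* the WT libraries lie at 54.3% and 72.4% and the mutant libraries at 49.5% and 53.7%.

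Upstream sequence was searched for the core of the Rap1 site, CACCC then any 2 bases then ACA, on both strands of the 500 bases before each start codon. It was found before 18 of the 81 genes (22.2%), against 2.23% of 5975 protein-coding genes with a full window. Windows of 50 bases around it (R64 reference, 5′ to 3′ on the strand of the gene, the core in capitals) are shown for the 3 matching genes among the 6 with the lowest fold changes and for *RPL41B*, the gene with the highest.
RPL8A (chrVIII:36236-36285, minus strand): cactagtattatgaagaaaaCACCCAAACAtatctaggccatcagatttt
RPL42B (chrVIII:383083-383132, minus strand): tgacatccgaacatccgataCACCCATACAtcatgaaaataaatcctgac
RPL13A (chrIV:308123-308172, plus strand): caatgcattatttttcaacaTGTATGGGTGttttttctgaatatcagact
RPL41B (chrIV:222117-222166, minus strand): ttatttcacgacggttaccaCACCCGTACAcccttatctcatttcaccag
The core of *RPL13A* runs opposite to the gene and the other 3 run with it. Genes with the core had a median log2 fold change of -1.43 (17 of 18 lower) and those without it of -1.38 (60 of 63 lower). This split is by the exact string only, and binding of Rap1 was not measured, so it does not part bound from unbound genes.

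Regulators of the ribosomal protein genes did not move as a group. Of 11 regulators 2 were lower, 1 was higher and 8 did not pass, with a median of -0.0047. Among all genes tested 19.1% were lower and 18.8% higher, so the count of lower regulators is near that share. *RAP1*, the common activator, had 94.7, 123, 75.3 and 72.9 CPM (log2 fold change -0.56, SE 0.15, edgeR adjusted p = 0.036). *TOD6*, a repressor of ribosome biogenesis genes, fell from 23.0 ± 1.11 CPM in WT to 9.09 ± 0.116 CPM in *tho2Δ* (SD, n = 2; log2 fold change -1.33, SE 0.12, edgeR adjusted p = 0.00208). *CRF1*, a corepressor that acts through Fhl1, had 2.91, 1.88, 6.41 and 7.03 CPM and was higher (log2 fold change 1.47, SE 0.27, edgeR adjusted p = 0.011), at a low level. The activators *FHL1*, *IFH1* and *SFP1* stayed short of the threshold at -0.23, -0.14 and 0.40 on the log2 scale (edgeR adjusted p = 0.217, 0.36 and 0.117).

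Genes that serve the large-subunit proteins were lower with them. Of 11 genes listed as dedicated chaperones and importers, *ALB1* and *ARX1* among them, 10 were lower, with a median of -1.30. Among all genes tested 19.1% were lower. *RRB1*, the chaperone of L3, had 153, 156, 66.3 and 59.0 CPM (log2 fold change -1.30, SE 0.11, edgeR adjusted p = 0.00185), *ACL4*, that of L4, had a log2 fold change of -1.10, *SQT1*, that of L10, -0.99, and *SYO1*, which carries L5 and L11 into the nucleus, -1.36. The log2 ratio of WT replicate 4 over 3 had a median of 0.0048 in the 11 genes, against 0.51 in the 81, as in *SQT1* with 144, 145, 73.9 and 71.8 CPM. *KAP123*, the main importer of ribosomal proteins, was lower (-1.14), and the importer gene *KAP104* did not pass (-0.08). Of 15 late maturation factors 13 were lower, against 19.1% of all genes tested, with a median of -1.30. *NOG1*, a GTPase of the pre-60S particle, had 255, 377, 91.2 and 95.8 CPM (log2 fold change -1.76, SE 0.21, edgeR adjusted p = 0.00335), and *NMD3*, the export adaptor, had a log2 fold change of -1.62. *TIF6*, which keeps the subunits apart, and *REH1* did not pass (log2 fold changes -0.26 and 0.21).

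Of the 7 methyltransferases of large-subunit proteins, with a median of -0.24 and against 19.1% of all genes tested, 3 were lower. These were *TAE1* (-0.90), *RKM3* (-0.82) and *HPM1* (-0.72), which modifies L3. *RKM1*, which modifies L23, had 54.7, 54.7, 49.1 and 49.6 CPM and did not pass (log2 fold change -0.15, SE 0.10, edgeR adjusted p = 0.309).

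The small subunit gave nearly the same picture as the large one, with 55 of 56 genes lower (19.1% of all genes tested) and a median of -1.38. The mitochondrial large subunit did not, since 0 of 34 *MRPL* genes passed in either direction with edgeR (5 at an unadjusted p under 0.05) and their median was 0.12. With DESeq2 1 was lower and 1 higher, and with limma on log2(TPM + 1) 1 was higher.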

How the data were processed

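From the 1 table the authors deposited, the raw counts and TPM of each gene were used, and 4 columns of FPKM were left aside. The counts deposited are whole numbers with no normalization, and the TPM deposited by the authors takes gene length and library into account. Tools named in the submitters' processing notes are StringTie 1.3.4d, HISAT2 2.1.0, Trimmomatic and bcl2fastq 2.20.0, with build R64. The counting step, the annotation and any use of strand were not given in the sources used here. Reads from overlapping or antisense genes can therefore not be told apart. For RNA extraction the labels name a column kit, and the methods hot phenol.

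Counts were fitted with edgeR 4.0.16 (R 4.3.3), using TMM factors, its expression filter and a quasi-likelihood test with genotype alone. Benjamini-Hochberg adjustment ran over the 5890 genes kept, which hold all 81 members. The SE of a fold change was taken as its size over the root of the F statistic. For each pair of genes named A and B with a mean count of at least 10 (61 pairs), the change of the A to B ratio was tested with a term for each library. Matching to the R64 reference used the locus tag for 5995 of the 6396 genes and the symbol for 47, which left 354 unmatched. The list names EFL1 and DRG1 were matched by synonym (RIA1 and AFG2). Copies were called near-identical at 95% identity over at least 50% of the length (BLAST 2.17.0). Gene models hold no UTRs, so length is coding length, on which TPM of the shortest genes depends strongly. Alternatives were median-of-ratios factors, library totals, TMM factors without ribosomal protein genes, 2 other filters, DESeq2 1.42.0, limma 3.58.1 on log2(TPM + 1) and log2(TPM + 0.1), a replicate block, and each library left out. Members, lists and named genes (the 6 lowest and 6 highest fold changes, genes not past the test, the 5 pairs with the smallest p, the 5 highest TPM, the stalk and 1 further gene) were chosen with earlier results of these data known. The values of that further gene and of its pair are not reported here and are not drawn by name, but they enter the counts and medians. Scripts were first tested on simulated data. Total counts were 33543267 and 32401027 for WT and 31417222 and 36989697 for *tho2Δ*, replicate 3 first. The members had between 498 and 181123 counts per library, so counting error is small beside the spread between libraries.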

Additional observations from a re-analysis of the deposited data

How the results depend on the processing

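The count of lower genes stayed at 77 with median-of-ratios factors, TMM factors without ribosomal protein genes, a mean count of at least 50, no filter and the replicate block, where between 17.1% (no filter) and 19.9% (TMM factors without ribosomal protein genes) of all genes were lower. The replicate block kept 75 of the 77 genes, lost *RPP0* and *RPL3*, and added *RPL41A* and *RPL15B*. The count was 80 with DESeq2 (19.8% of all genes), 66 with library totals (5.14%) and 67 on both TPM scales (6.05% with a pseudocount of 1 and 5.82% with 0.1), and it ran from 8 to 81 (3.37% to 31.1%) when 1 library was left out. The median log2 fold change was -0.92 with library totals (0.45 for all genes) and -0.98 on both TPM scales (0.39 for all genes with a pseudocount of 1 and 0.42 with 0.1), so relative to all genes it was -1.37, -1.37 and -1.40, and it ran from -1.64 to -1.16 when 1 library was left out. *RPL41B* turned to 0.18 with library totals, to 0.30 on both TPM scales, and it ran from -0.62 (without WT replicate 4) to 0.39 (without WT replicate 3). The cause was not tested. Of the A and B pairs, 3 passed among reciprocal best protein matches (*RPL9*, *RPL15* and *RPL37*), 2 with the replicate block (*RPL8* and *RPL9*, against 8.2% of the 61 pairs), and from 0 to 27 when 1 library was left out. The 3 among reciprocal best protein matches were of 33 large-subunit pairs tested there, against 33.4% of all 713 such pairs. Large-subunit pairs thus passed less often in that setting than these pairs in general. Among the 24 large-subunit pairs under 95% identical, 2 passed (*RPL9* and *RPL15*). The adjustment there ran over fewer pairs, with a smallest edgeR adjusted p = 0.0462 against 0.0688 in the main test. The share passing among all A and B pairs under 95% identical was not computed. The ratio of summed TPM was 0.530 as a share of raw counts and 0.614 within protein-coding genes. The deviations of same-numbered libraries correlated at -0.03 over 5890 genes. Resting on 2 libraries a strain, this value cannot decide whether replicate numbers pair the libraries. With 1 library of a strain left out, the other one was taken to vary as much as the libraries of the other strain. With 2 libraries a strain, and WT libraries that differ far more than *tho2Δ* libraries, adjusted p-values depend on which library is kept.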

Other observations

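A shorter form of the Rap1 core without its first base, ACCC then any 2 bases then ACA, chosen after the data were seen, was found before 36 of the 81 genes (44.4%), against 5.47% of protein-coding genes. The median log2 fold change was -1.42 in these genes and -1.35 in the other 45. The longer core lay before both copies of a pair in 3 of the 35 pairs, and its nearest match lay between 153 and 442 bases before the start codon.

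In WT, the share of the A copy in the counts of a pair ran from 18.9% for *RPL16* to 98.5% for *RPL15*. *RPL22B*, the minor gene of *RPL22*, had 41.2, 29.1, 13.5 and 11.9 CPM, in the order WT replicates 3 and 4, then *tho2Δ*. With all 4 libraries its log2 fold change was -1.47, beside -1.71 for *RPL22A*, which had 648, 1272, 301 and 286 CPM. Without WT replicate 3 the values were -1.22 for *RPL22B* and -2.14 for *RPL22A*. Without WT replicate 4 they were -1.71 and -1.15, so the order of the copies depended on the WT library.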
